A study of Homo sapiens with 9 samples.

Results

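The response of HT-29 cells to ADP-heptose was measured by RNA sequencing against cells that were left without stimulation. HT-29 is a human colorectal adenocarcinoma line, used here as wild type cells, and it is the only line compared. The study found no significant change of any gene in healthy rectal organoids given ADP-heptose. The results below are therefore not carried over to normal intestinal epithelium. Of 9 libraries in the series, 6 were compared: 3 of HT-29 cells given 500 ng/mL ADP-heptose for 2.5 h and 3 of HT-29 cells harvested without a stimulus. Libraries were chosen by their labels alone, every gene in the table was considered, and each gene identifier was kept once. The values are read counts per gene as deposited, and a level is given below as CPM, counts scaled to a common library size with TMM factors. CPM is not corrected for transcript length, so it compares libraries for 1 gene and not genes with each other.

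ADP-heptose is a sugar nucleotide that Gram-negative bacteria make on the way to lipopolysaccharide. When it reaches the cytosol of a host cell it binds the kinase ALPK1, which phosphorylates the adaptor TIFA, and TIFA then gathers into complexes that recruit TRAF proteins and switch on the kinases TAK1 and IKK. IKK releases NF-κB dimers, which enter the nucleus and start transcription of chemokines, cytokines and of the inhibitors that end the signal, while TAK1 also feeds the MAP kinases that act on AP-1 factors.

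The ADP-heptose libraries held 50054773, 58272772 and 50731663 counts, and the non-stimulated ones 37537705, 35040844 and 35861924. The third ADP-heptose library stood apart: its log2 differences from both others had a standard deviation (SD) of 0.364 and 0.372 over 11004 well expressed genes, against 0.109 between these others and 0.131 to 0.165 among the non-stimulated libraries. Each result was therefore also computed without it, and a count of calls or list members that moved by more than 1.5-fold is given without it as well. The study describes the RNA as coming from independent experiments, while the labels do not say which libraries were prepared side by side, and the p-values measure the spread between these libraries. The epithelial markers EPCAM, KRT8, KRT18, KRT19, CDH1 and VIL1 were present in all libraries, and the summed level of the 8 epithelial markers was 8036 to 8400 CPM without and 8810 to 12440 CPM with ADP-heptose, the highest value being that of the third library. Of these 8 markers only KRT20 rose (log2 0.40, adjusted p = 0.0136 in edgeR's quasi-likelihood test). CDX2 was low, at 0.30 to 1.27 CPM. Markers of other cell types were low or at 0, the highest being COL1A1, a collagen gene of the fibroblast list. All leukocyte markers together reached 1.65 to 2.12 CPM without and 1.40 to 2.51 CPM with ADP-heptose, T and NK cell markers at most 0.354 CPM, B cell markers at most 0.263 CPM and endothelial markers at most 0.771 CPM. Of the 5 monocyte markers only ITGAM, which encodes integrin alpha M, was tested, and it rose (0, 0 and 0.16 CPM against 1.21, 0.74 and 0.50 CPM, adjusted p = 0.0245), while 4 of the 6 fibroblast markers had no count and COL1A1 rose from 13.3, 12.35 and 14.5 CPM to 16.7, 17.8 and 18.8 CPM (log2 0.41, adjusted p = 0.0432). The summed level of the fibroblast markers was 12.35 to 14.5 CPM without and 16.7 to 18.8 CPM with ADP-heptose, and its part in the results was not tested. In bulk RNA a change in the number of cells and a change in RNA per cell cannot be told apart.

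Of 17323 genes tested with edgeR's quasi-likelihood test, 979 rose (5.65% of those tested) and 433 fell (2.5%) at a Benjamini-Hochberg adjusted p under 0.05. With the added requirement of at least a 2-fold change, 481 genes were called higher (2.78%) and 56 called lower (0.323%). The median change of all tested genes was 0.01 on the log2 scale, and these shares and this median are the background for the gene lists below, in which rose and fell mean an adjusted p under 0.05. Without the third ADP-heptose library 1988 of 17417 genes tested rose (11.4%) and 1253 fell (7.19%), and these shares are the background for every list count given without that library. In that fit 553 genes were called higher and 102 lower, and 448 of the 481 and 44 of the 56 were again called. For 2678 genes (15.5%) the lowest ADP-heptose library exceeded the highest non-stimulated library, and for 2554 (14.7%) the reverse held, and all 481 and 56 called genes were among these. The rises were also the larger changes: 215 of the genes called higher had a fitted rise of at least 4-fold and 66 of at least 16-fold, whereas 6 of the genes called lower fell at least 4-fold and none 16-fold. Genes called higher took 1.03% to 1.08% of all counts without stimulation and 3.34% to 3.71% with ADP-heptose, and genes called lower took 0.051% to 0.053% and 0.017% to 0.022%. Of the called genes, 349 of those higher and 32 of those lower were protein-coding, among 12887 protein-coding genes tested. Long non-coding genes numbered 90 and 16 among 2552 tested. Reads were counted without a stated strand rule, and 49 of the 458 genes called higher that have a position overlap another gene called higher on the opposite strand, so that their reads cannot be told apart.

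**Figure D1:**
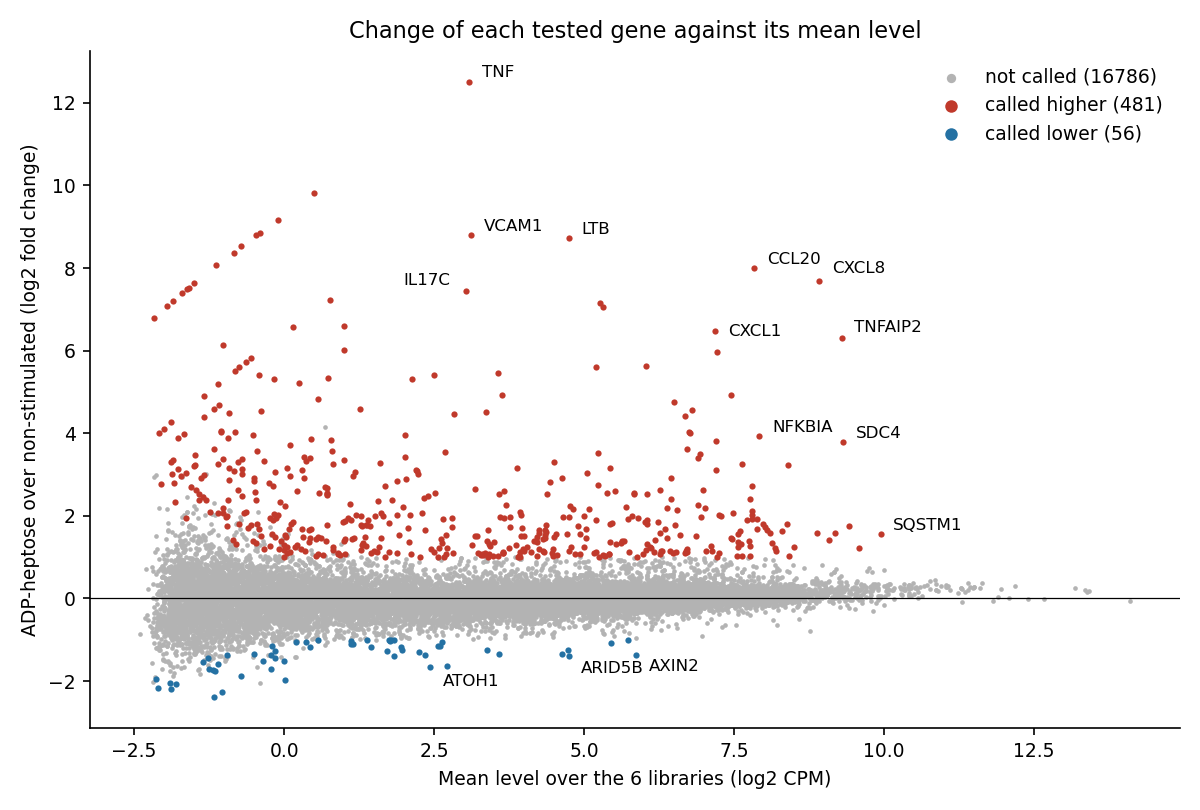
Change of each of the 17323 tested genes (y axis, log2 fold change of ADP-heptose over non-stimulated cells) against its mean level over the 6 libraries (x axis, log2 CPM), with 481 genes called higher in red, 56 called lower in blue and all others in grey. Red points reach far up at every level of expression while blue points stay close to the grey cloud; the rising diagonal of red points at the upper left holds genes with no or almost no counts without stimulation, whose fitted fold has no upper limit.

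The 4 largest rises with a stretch of the kind that NF-κB dimers are known to bind are shown with the DNA before their start, so that the stretch can be read in each. The start is that of RefSeq, which for LTB, CCL20 and CXCL8 lies inside the GENCODE gene span given further on, so part or all of the stretch printed for them is within that span. The sequences are those of RefSeq on GRCh38.p14, printed 5′ to 3′ on the strand of the gene, with each match to the 9-letter stretch GGNNTTTCC, on either strand, in capitals. VCAM1 (chr1:100719492-100719728, plus strand) has matches that begin 219 and 62 bases before the start, LTB (chr6:31582463-31582551, minus strand) has 1 at 86 bases, CCL20 (chr2:227813723-227813811, plus strand) 1 at 79 bases and CXCL8 (chr4:73740438-73740526, plus strand) 1 at 91 bases.
VCAM1: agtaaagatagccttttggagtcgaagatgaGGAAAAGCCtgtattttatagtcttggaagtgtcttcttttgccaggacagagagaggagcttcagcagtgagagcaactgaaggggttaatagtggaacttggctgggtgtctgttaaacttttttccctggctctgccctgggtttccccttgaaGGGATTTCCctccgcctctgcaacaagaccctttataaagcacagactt
LTB: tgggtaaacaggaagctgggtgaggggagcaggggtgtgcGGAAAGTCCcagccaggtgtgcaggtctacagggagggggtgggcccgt
CCL20: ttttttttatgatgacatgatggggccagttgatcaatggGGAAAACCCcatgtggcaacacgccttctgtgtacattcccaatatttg
CXCL8: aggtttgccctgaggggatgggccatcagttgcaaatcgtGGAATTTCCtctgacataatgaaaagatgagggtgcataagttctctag

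A promoter of 250 bases before to 50 bases after the start was on hand for 11576 of the tested genes. GGNNTTTCC occurred in 6.69% of them, in 57 of 300 promoters of genes called higher (19.0%), in 33 of 125 with a rise of at least 4-fold (26.4%) and in 17 of 46 with a rise of at least 16-fold (37.0%). It occurred in 2 of 24 promoters of genes called lower (8.33%). More than 1 match was held by 0.371% of all promoters and by 6 of the 46 (13.0%) with a 16-fold rise, among them CXCL1, CXCL2, CXCL3, IL32 and TNFAIP3. CXCL1, CXCL2 and CXCL3 are near-identical neighbors, so their matches are not separate cases. The share with a match was thus larger in each class of larger rise, where each class is part of the one before. The 7-letter stretch TGANTCA, which AP-1 dimers are known to bind, occurred in 4.83% of all promoters, in 34 of 300 (11.3%), 16 of 125 (12.8%) and 7 of 46 (15.2%) of those called higher by the same steps, and in 2 of 24 (8.33%) of those called lower. Both strands were searched, each position was counted once, and matches of the 2 stretches may overlap. TNF, UNC13A, PLAU, CSF2 and ANKRD33B, which are also among the 20 largest rises, have no match to GGNNTTTCC in this window. A match is a description of letters and not evidence of a bound factor.

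Most components that carry the signal from ADP-heptose to NF-κB did not pass the test at the RNA level, but the adaptor TIFA rose. Of 11 tested genes of the ALPK1 pathway, 2 rose and none fell, with a median of −0.07 (log2). ALPK1 itself averaged 7.41 CPM without and 7.07 CPM with ADP-heptose (log2 −0.07, adjusted p = 0.763). TIFA, the adaptor that ALPK1 phosphorylates, stood at 9.92, 14.4 and 12.2 CPM in the non-stimulated libraries and at 55.4, 54.9 and 54.8 CPM with ADP-heptose, a 4.52-fold rise (log2 2.18 ± 0.13 (SE), adjusted p = 1.12e-05). The groups did not overlap, as in every gene called higher. TRAF2, a ubiquitin ligase adaptor, rose 1.67-fold (adjusted p = 0.0111). The kinase MAP3K7 (TAK1), its partners TAB1, TAB2 and TAB3, the IKK subunits CHUK, IKBKB and IKBKG, and TRAF6 all had log2 changes between −0.12 and 0.26 that did not pass the test. Among 11 genes of Toll-like and NOD sensing, TICAM1 (the adaptor of TLR3 and TLR4, 3.76-fold), IRAK2 (a kinase of the Toll and IL-1 receptors, 3.40-fold) and RIPK2 (the kinase of the NOD receptors, 1.41-fold) rose and none fell, or 1 (TLR6) without the third ADP-heptose library. TLR2, TLR5 and NOD2 had too few counts to be tested.

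The genes of the NF-κB subunits rose together, 5 of 5, with a median of 2.01 (log2). NFKB2, the precursor of p52, stood at 64.5, 67.2 and 62.6 CPM without and at 581, 570 and 687 CPM with ADP-heptose, a 9.46-fold rise (log2 3.24 ± 0.10, adjusted p = 2.07e-07). Its partner RELB rose 8.70-fold, NFKB1, the precursor of p50, 4.03-fold, REL 3.29-fold and RELA 1.93-fold. REL differed most among the stimulated libraries, at 28.2, 31.2 and 11.4 CPM, and the third of these was still above the highest non-stimulated value of 8.22 CPM. The call of REL was lost without any 1 of the non-stimulated libraries (adjusted p between 0.0555 and 0.0884).

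Of 16 genes that restrain or shape NF-κB signaling, 15 rose, with a median of 1.33. BIRC3, which encodes the ubiquitin ligase cIAP2, stood at 11.9, 9.63 and 11.7 CPM without and at 359, 378 and 277 CPM with ADP-heptose (30.4-fold, log2 4.93 ± 0.16, adjusted p = 2.07e-07). TNFAIP3, which encodes the deubiquitinase A20, went from 6.58, 5.83 and 6.84 CPM to 191, 189 and 141 CPM (27.1-fold, log2 4.76 ± 0.15, adjusted p = 2.07e-07). NFKBIA, the inhibitor IκBα that NF-κB itself induces, went from 29.8, 31.0 and 28.4 CPM to 455, 451 and 458 CPM (15.3-fold, log2 3.94 ± 0.08, adjusted p = 1.12e-08). In all 3 genes the lowest stimulated library lay far above the highest non-stimulated one. BCL3 (9.62-fold) and NFKBIE (8.98-fold), members of the IκB family, followed. ZC3H12A, an RNase that degrades cytokine transcripts, rose 3.97-fold, the deubiquitinase CYLD 2.78-fold, TNIP1 2.63-fold, NFKBID 2.41-fold, TRAF1 2.20-fold and BIRC2 2.16-fold, whereas NFKBIZ, TRAF3, NFKBIB and TNIP2 rose by less than 2-fold. OTULIN, which removes linear ubiquitin chains, was the member that did not pass (log2 −0.13, adjusted p = 0.53).

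Secreted signals made up most of the largest rises. All 4 tested chemokines that attract neutrophils rose, with a median of 6.81 (log2). CXCL8 (ENSG00000169429, chr4:73740506-73743716, plus strand, GENCODE release 29), which encodes interleukin 8, stood at 4.68, 3.47 and 5.94 CPM without and at 936, 999 and 953 CPM with ADP-heptose, a 205-fold rise (log2 7.68 ± 0.20, adjusted p = 4.88e-08). CXCL2 went from 0.40, 0.88 and 0.32 CPM to 78.0, 72.5 and 77.4 CPM (143-fold, log2 7.16 ± 0.24). CXCL1 went from 3.42, 3.19 and 3.13 CPM to 290, 278 and 293 CPM (88.4-fold, log2 6.47 ± 0.10, adjusted p = 2.15e-09), and CXCL3 from at most 3.55 CPM to at least 112 CPM (49.4-fold). The stimulated libraries were close together and far above the others for each of these genes. CXCL1, CXCL2 and CXCL3 are near-identical neighbors, so reads may have been split between them, while CXCL5 and CXCL6 had too few counts to be tested.

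CCL20 (ENSG00000115009, chr2:227805739-227817564, plus strand), the ligand of CCR6 on dendritic cells and Th17 cells, stood at 1.62, 1.82 and 1.86 CPM without and at 433, 469 and 461 CPM with ADP-heptose, a 257-fold rise (log2 8.01 ± 0.11, adjusted p = 2.15e-09). Together with CXCL8, CXCL1, CXCL2 and CXCL3 it took 0.0013% to 0.0014% of all counts without and 0.171% to 0.192% with ADP-heptose. Of 8 other chemokines tested, 7 rose, with a median of 4.58, or 4.06 when the genes near 0 without stimulation are set at their lower bound. CX3CL1, the membrane-bound ligand fractalkine, went from 8.35, 9.30 and 9.09 CPM to 211, 215 and 211 CPM (23.8-fold, log2 4.57 ± 0.09, adjusted p = 1.1e-08). CCL22 went from at most 0.22 CPM to between 4.20 and 4.47 CPM (24.0-fold). CXCL10, a ligand of CXCR3, had 2 counts over the 3 non-stimulated libraries and 85, 106 and 105 counts with ADP-heptose, a ratio of 111 after scaling for depth (95% counting interval 30.4 to 918). CCL2 had no count without stimulation and 34, 54 and 53 counts with it, at least an 11.7-fold rise against a floor of 3 counts per library. CXCL11, the other tested ligand of CXCR3, reached 0.53 to 0.65 CPM (adjusted p = 0.0289), CXCL16 rose 1.38-fold, and CCL28 did not pass (adjusted p = 0.755). The calls of CXCL11 and CXCL16 were each lost in several fits that left out 1 library.

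Among 15 interleukins and colony-stimulating factors 10 rose and none fell, with a median of 2.69. IL17C, the epithelial member of the IL-17 family, stood at 0.05, 0.22 and 0 CPM without and at 15.3, 14.6 and 17.4 CPM with ADP-heptose (173-fold, log2 7.44 ± 0.39, adjusted p = 4.38e-06). CSF1, the growth factor of macrophages, went from 0.51, 0.50 and 0.77 CPM to 83.9, 79.2 and 72.1 CPM (132-fold, log2 7.05 ± 0.16, adjusted p = 2.27e-08), and CSF2, which encodes GM-CSF, from 0.28, 0.39 and 0.08 CPM to 10.3, 11.6 and 10.2 CPM (42.8-fold). In none of the 3 genes did the groups come near each other. IL32 went from at most 0.73 CPM to 19.5, 20.3 and 28.8 CPM (43.8-fold). IL1A (10.7-fold), IL12A (8.96-fold), IL23A (6.46-fold) and LIF (4.52-fold) also rose. IL1B rose too, but from 0.05 CPM on average to no more than 0.68 CPM (adjusted p = 0.0246). Its call was lost without ADP-heptose replicate 2 or any 1 of the non-stimulated libraries. IL15 rose 1.45-fold, whereas IL18, an interleukin that epithelial cells hold ready, averaged 26.5 and 30.4 CPM and did not pass (adjusted p = 0.334). IL33, IL7, IL11 and IL1RN did not pass either, and IL6, CSF3 and IL36G had too few counts to be tested.

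Of 10 ligands of the TNF superfamily 6 rose, with a median of 0.91. TNF (ENSG00000232810, chr6:31575567-31578336, plus strand) had no count in any non-stimulated library and 832, 1004 and 689 counts with ADP-heptose, which is 17.0, 17.6 and 15.0 CPM and at least a 208-fold rise against the floor (adjusted p = 1.69e-06). LTB (ENSG00000227507, chr6:31580525-31582522, minus strand), which encodes lymphotoxin beta, went from 0.15, 0.19 and 0.03 CPM to 46.9, 45.4 and 67.0 CPM (421-fold, log2 8.72 ± 0.33, adjusted p = 5.65e-07). LTA, its partner, went from 2 counts in all to 46, 46 and 70 counts, a ratio of 60.6 (95% counting interval 16.5 to 504). These 3 genes lie side by side in the class III region of the MHC. TNFSF18, the ligand of GITR, was at 0 without stimulation and at 67, 78 and 54 counts with it, at least a 16.4-fold rise. TNFSF10, which encodes TRAIL, rose 1.99-fold and TNFSF9, the ligand of 4-1BB, 1.77-fold, while TNFSF12, TNFSF13, TNFSF13B and TNFSF15 did not pass.

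**Figure D2:**
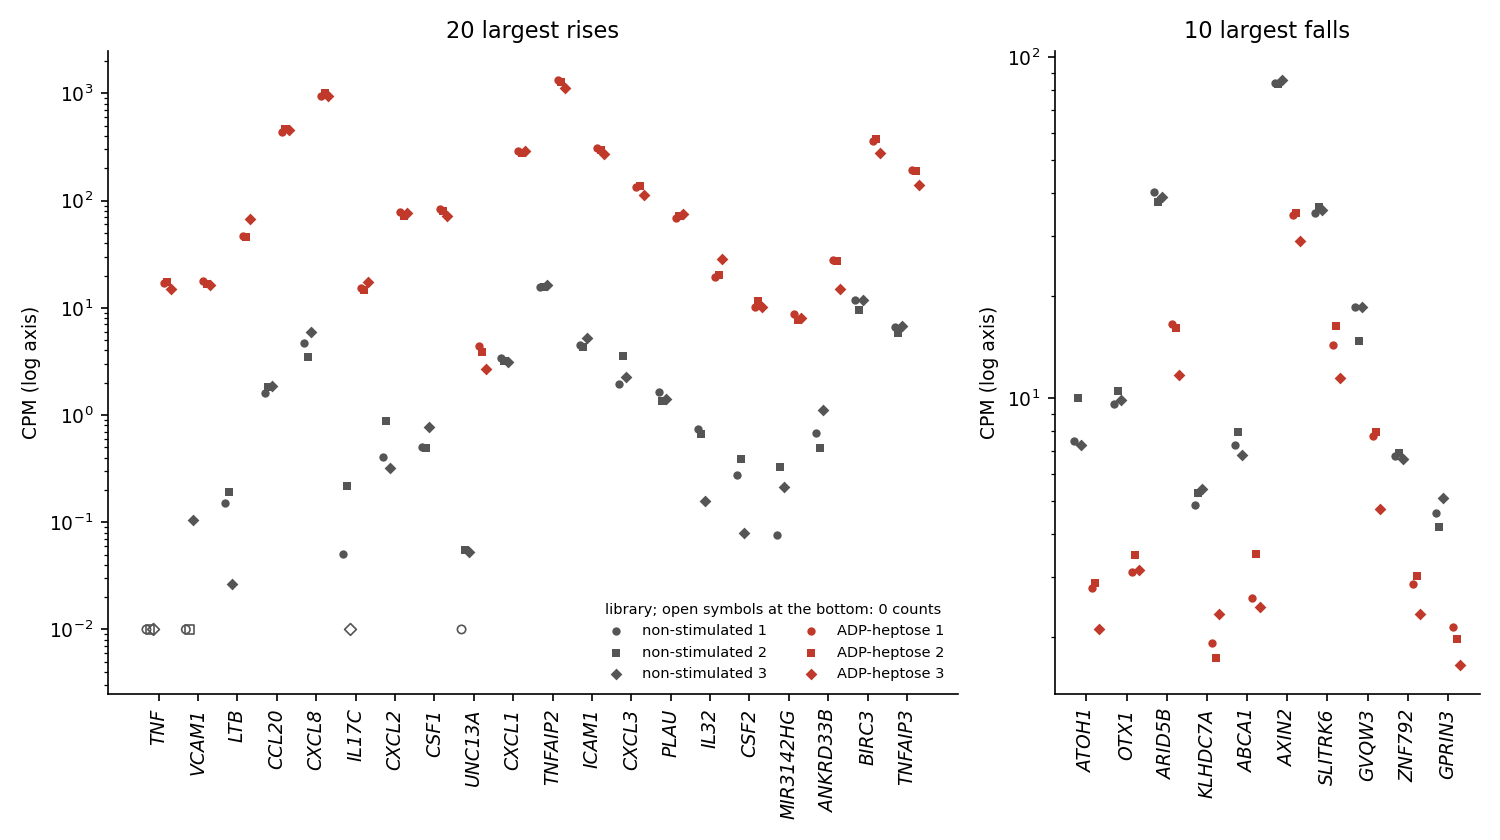
Level of the 20 largest rises (left) and the 10 largest falls (right) among called genes of a log2 CPM of 1 or more on average, in each of the 3 non-stimulated (grey) and 3 ADP-heptose libraries (red), as CPM on log axes that differ between the panels; open symbols at the bottom mark libraries with 0 counts. By the rule for naming, the red symbols lie above every grey symbol of the same gene on the left and below them on the right. The changes on the right span a much smaller range.

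Receptors and adhesion molecules on the cell surface rose as well. Among 14 receptors of the TNF superfamily 7 rose and none fell, with a median of 0.44, and without the third ADP-heptose library 1 (TNFRSF11A) fell. TNFRSF9 (4-1BB), a receptor best known from activated T cells, had 2 counts without stimulation and 165, 191 and 116 counts with it, a ratio of 176 (95% counting interval 48.6 to 1460). TNFRSF10B, a receptor of TRAIL, went from 134, 118 and 130 CPM to 430, 440 and 330 CPM (3.14-fold, log2 1.65 ± 0.12, adjusted p = 4.14e-05). RELT (2.14-fold), TNFRSF12A (1.83-fold), TNFRSF14 (1.75-fold), the TNF receptor TNFRSF1A (1.38-fold) and TNFRSF10A (1.37-fold) made up the rest. FAS and LTBR, the receptor of lymphotoxin, did not pass (adjusted p = 0.492 and 0.735).

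VCAM1 (ENSG00000162692, chr1:100719742-100739045, plus strand), the ligand of the integrin VLA-4 and best known from endothelium, had 0, 0 and 4 counts without stimulation and 865, 954 and 745 counts with ADP-heptose, which is 17.7, 16.7 and 16.2 CPM (log2 8.79 ± 0.38, adjusted p = 1.36e-06). With so few counts without stimulation, this SE is smaller than the counting error of the fold. ICAM1, the ligand of LFA-1 on leukocytes, went from 4.45, 4.32 and 5.22 CPM to 307, 299 and 272 CPM (62.7-fold, log2 5.97 ± 0.12, adjusted p = 1.1e-08). ICAM5 rose 2.16-fold and MADCAM1 did not pass (adjusted p = 0.464). Endothelial markers together reached at most 0.771 CPM, as given above, and the cell origin of these rises was not tested.

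Of 8 tested ligands that signal to T cells 4 rose, with a median of 0.43. ICOSLG, the ligand of ICOS, went from 4.18, 3.03 and 3.29 CPM to 19.2, 22.3 and 19.0 CPM (5.76-fold, log2 2.53 ± 0.15, adjusted p = 8.21e-06). CD274, which encodes PD-L1, remained scarce, at 0.15, 0.28 and 0.05 CPM without and 0.78, 0.67 and 0.59 CPM with ADP-heptose (4.20-fold, log2 2.07 ± 0.49, adjusted p = 0.0357). Its groups did not overlap, but the call was lost without ADP-heptose replicate 1 or 2 (adjusted p = 0.105 and 0.0849) or non-stimulated replicate 1 or 3 (adjusted p = 0.144 and 0.108). NECTIN2 (1.36-fold) and PVR (1.34-fold), ligands of TIGIT, rose slightly, and CD276, VSIR, CD47 and LGALS9 did not pass.

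Of 20 tested genes of class I antigen presentation 8 rose and none fell, with a median of 0.49, and 13 rose without the third ADP-heptose library, where 11.4% of all genes rose. HLA-B went from 9.92, 9.85 and 9.60 CPM to 23.3, 23.4 and 35.2 CPM (2.79-fold, adjusted p = 0.000583), and TAP1, a subunit of the peptide transporter, from 7.44, 8.15 and 9.07 CPM to 23.3, 25.5 and 21.5 CPM (2.85-fold, log2 1.51 ± 0.12, adjusted p = 5.12e-05). TAPBP (2.20-fold), HLA-F (2.02-fold), HLA-E (2.001-fold), the immunoproteasome subunit PSMB9 (3.95-fold, from 0.18 CPM), HLA-C (1.52-fold) and B2M (1.40-fold) also rose. The calls of HLA-C and B2M were lost without any 1 of the non-stimulated libraries. NLRC5, the transactivator of class I genes, averaged 3.83 and 3.33 CPM and did not pass (adjusted p = 0.486). HLA genes resemble each other closely, so their reads may have been shared. No gene of class II presentation passed: CIITA, HLA-DMA and HLA-DMB were tested, and CD74, HLA-DRA and 5 further genes had too few counts.

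Transcription factors of the interferon pathways rose in part. IRF1 went from 15.4, 17.0 and 15.2 CPM to 186, 182 and 213 CPM (12.2-fold, log2 3.61 ± 0.10, adjusted p = 8.97e-08), and STAT5A from 4.73, 4.13 and 3.45 CPM to 40.5, 39.5 and 41.8 CPM (9.88-fold, log2 3.30 ± 0.13, adjusted p = 5.93e-07). IRF7 rose 2.07-fold, and in all 4 of 15 IRF and STAT genes rose (8 without the third ADP-heptose library), with a median of 0.28. STAT2 and IRF9, members of a factor that interferons activate, had log2 changes of −0.14 and −0.45 and did not pass. Of 14 tested interferon-stimulated genes only IFIT5 rose (1.33-fold, adjusted p = 0.0477, and 0.131 to 0.172 without any 1 of the libraries other than ADP-heptose replicate 3), with a median of 0.20 for the list. ISG15, IFIT1, IFIT2, IFIT3, OAS1 and MX1 did not pass, and 7 further genes of that list, RSAD2 and MX2 among them, had too few counts. Of 7 SOCS genes, which damp cytokine receptors, SOCS3 rose 1.51-fold (adjusted p = 0.0363) and SOCS5 fell 1.28-fold (adjusted p = 0.0362). Both of these calls were lost without any 1 of the libraries other than ADP-heptose replicate 3. Without the third library 2 interferon-stimulated genes rose and 1 fell, and 2 SOCS genes rose and 2 fell.

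AP-1 factors and immediate-early genes, which answer MAP kinases and are known as fast and brief, were high at 2.5 h. Of 12 AP-1 genes 10 rose, with a median of 1.83. ATF3 went from 12.5, 12.1 and 12.9 CPM to 195, 207 and 207 CPM (16.3-fold, log2 4.02 ± 0.09, adjusted p = 1.12e-08). FOSL1 (6.21-fold), FOSB (7.51-fold), JUN (4.20-fold), MAFF (3.62-fold), JUNB (3.49-fold), JUND (2.60-fold) and FOSL2 (2.03-fold) followed, while FOS itself rose 1.46-fold. BATF3 rose from at most 0.28 CPM to at least 0.71 CPM (adjusted p = 0.0432), and BATF and MAFK did not pass.

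Of 15 immediate-early genes 13 rose, with a median of 1.54. IER3, an early survival gene, went from 19.1, 19.7 and 20.4 CPM to 225, 214 and 229 CPM (11.3-fold, log2 3.50 ± 0.08, adjusted p = 2.27e-08). EGR1 went from 25.8, 22.4 and 25.1 CPM to 102, 101 and 80.9 CPM (3.87-fold), and the less expressed EGR2, EGR3 and EGR4 rose 7.53-, 10.3- and 5.90-fold. NR4A1 (3.18-fold), IER5 (2.91-fold), IER2 (2.52-fold), KLF6 (2.31-fold), KLF10 (2.30-fold) and KLF4 (2.02-fold) passed as well. MYC averaged 237 CPM without and 214 CPM with ADP-heptose (log2 −0.15, adjusted p = 0.335), and KLF2 did not pass. MYC fell without the third library (log2 −0.19, adjusted p = 0.00276).

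Of 15 genes of MAP kinase feedback, brakes on MAP kinase signaling, 5 rose and 2 fell. The rises were all of MAP kinase phosphatases (DUSP genes) and the falls of Sprouty genes, but other members of both families did not pass. DUSP1 went from 10.2, 8.42 and 10.2 CPM to 66.1, 64.1 and 64.6 CPM (6.76-fold, log2 2.76 ± 0.10, adjusted p = 5.65e-07), DUSP5 rose 5.35-fold, DUSP10 4.63-fold, DUSP8 3.47-fold and DUSP16 2.21-fold. SPRY1 went from 15.9, 15.1 and 13.2 CPM to 6.74, 6.76 and 5.12 CPM, a 2.37-fold fall (log2 −1.24 ± 0.14, adjusted p = 0.000592), and SPRY2 from between 38.4 and 41.7 CPM to 24.9, 24.2 and 24.5 CPM, a 1.63-fold fall. DUSP6, a phosphatase of ERK, averaged 46.5 and 36.6 CPM (log2 −0.35, adjusted p = 0.0635), and DUSP2, DUSP4, DUSP7, SPRY4 and the SPRED genes did not pass. Without the third library DUSP6 fell (log2 −0.26, adjusted p = 0.00371) and SPRY4 rose (log2 0.45, adjusted p = 6.48e-07), each against the other members of its family that changed.

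Of 6 tested ligands of the EGF receptor AREG (4.35-fold), EREG (3.18-fold) and HBEGF (1.76-fold) rose. AREG, which encodes amphiregulin, went from 82.3, 89.0 and 78.4 CPM to 342, 333 and 410 CPM (log2 2.12 ± 0.11, adjusted p = 2.98e-06). Of 9 factors that control mRNA decay 4 rose, with a median of −0.05. Besides ZC3H12A these were ZFP36, which encodes tristetraprolin and binds AU-rich elements (3.93-fold), ZC3H12C (2.87-fold) and ZFP36L1 (1.94-fold), whereas the roquin genes RC3H1 and RC3H2 did not pass. In that list 1 gene (ZFP36L2) fell without the third library.

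Prostaglandin synthesis and bradykinin receptors rose in 4 of 11 genes, with a median of 0.28. PTGS2, which encodes cyclooxygenase 2, went from 9.16, 8.42 and 9.91 CPM to 218, 219 and 151 CPM (21.4-fold, log2 4.42 ± 0.17, adjusted p = 5.93e-07). PTGES, the inducible synthase of prostaglandin E2 that acts after it, went from 1.90, 1.82 and 1.25 CPM to 6.52, 6.46 and 7.09 CPM (4.04-fold, adjusted p = 0.000127). PTGS1, PTGES2 and PTGES3, the constitutive counterparts, did not pass. BDKRB2 went from at most 0.15 CPM to at least 1.94 CPM (28.7-fold), and BDKRB1, at 0 without stimulation, to 24, 20 and 14 counts, at least a 4.81-fold rise.

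Genes on both sides of the control of cell death rose. Of 22 tested genes 7 rose and 1 fell, or 10 and 2 without the third library, with a median of 0.26. On the side of survival, CFLAR, which encodes the caspase-8 inhibitor cFLIP, went from 68.2, 62.3 and 67.2 CPM to 141, 148 and 145 CPM (2.20-fold, adjusted p = 2.38e-05), and MCL1 rose 1.67-fold. On the side of death, the BH3-only genes BBC3 (PUMA, 4.56-fold), PMAIP1 (NOXA, 2.64-fold) and BIK (2.01-fold) and the caspase CASP10 (1.46-fold) rose, while BMF, a further BH3-only gene, fell 1.58-fold (adjusted p = 0.00533). BBC3 went from 46.8, 49.4 and 42.5 CPM to 191, 189 and 253 CPM. BCL2, BCL2L1, XIAP, BAX and CASP8 did not pass.

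Stress genes that p53 is known to induce moved as 8 rises and 1 fall among 20, with a median of 0.32. CDKN1A, which encodes the cell-cycle inhibitor p21, went from 61.6, 52.6 and 61.1 CPM to 370, 376 and 406 CPM (6.57-fold, log2 2.72 ± 0.10, adjusted p = 4e-07), and GDF15, a stress cytokine, from 288, 306 and 280 CPM to 888, 841 and 887 CPM (2.99-fold). PLK3 (3.93-fold), PLK2 (2.67-fold), BTG2 (2.11-fold), SESN2 (1.77-fold), GADD45A (1.46-fold) and AEN (1.33-fold) rose and SESN1 fell 1.73-fold. MDM2 averaged 21.0 and 20.5 CPM (log2 −0.04, adjusted p = 0.866), and ZMAT3, RRM2B, XPC, DDB2 and TIGAR did not pass. Without the third library 9 rose and 3 fell. HT-29 cells are known to carry a mutant p53.

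Of 15 genes of the unfolded protein and integrated stress responses 7 rose, with a median of 0.49. PPP1R15A, a phosphatase subunit that restores translation, went from 100, 96.4 and 98.3 CPM to 362, 379 and 382 CPM (3.80-fold, log2 1.93 ± 0.08, adjusted p = 5.93e-07). ERN1, the sensor IRE1, rose 2.31-fold, CHAC1 1.99-fold, XBP1 1.55-fold, ATF4 1.41-fold and HERPUD1 1.36-fold, while the chaperone HSPA5 (log2 0.17) and DDIT3 (log2 0.61, adjusted p = 0.0659) did not pass. The count was 11 of 15 without the third library.

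No gene in the lists of proliferation and mismatch repair was called higher or lower. None of 22 genes of G2 and mitosis rose and 3 fell, each by less than 2-fold: KIF20A (1.43-fold), AURKA (1.29-fold) and CCNA2 (1.28-fold). None of 20 genes of DNA replication passed in either direction, and of 8 mismatch repair genes PMS2 fell 1.28-fold (adjusted p = 0.0348). The calls of AURKA, CCNA2 and PMS2 were lost without any 1 of the libraries other than ADP-heptose replicate 3. The medians of the 3 lists were −0.22, −0.03 and −0.22, against 0.01 for all genes. In them 13.6%, 0% and 12.5% of the tested genes fell, against 2.5% of all genes. The counts depended on the third ADP-heptose library. Without it 10 of 22 mitosis genes, 4 of 20 replication genes and 5 of 8 mismatch repair genes fell, against 7.19% of all genes. In the same fit 1 mitosis gene rose. MKI67 averaged 734 CPM without and 628 CPM with ADP-heptose (adjusted p = 0.309).

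Barrier genes rose in part and none of those described here fell. Of 7 tested antimicrobial genes 2 rose. PI3, which encodes the elastase inhibitor elafin, went from 11.6, 13.4 and 12.9 CPM to 171, 163 and 276 CPM (16.1-fold, log2 4.01 ± 0.21, adjusted p = 4.8e-06), and PGLYRP2, at 0 without stimulation, to 25, 21 and 30 counts, at least a 6.44-fold rise. LCN2, which encodes the iron-binding lipocalin 2, averaged 48.9 and 73.5 CPM (log2 0.59, adjusted p = 0.104) and passed without the third library. DEFB4A, the DUOX2 oxidase, NOS2 and SAA1 had too few counts to be tested. Of 9 complement genes, C3 reached 31, 30 and 44 counts from 3 counts in all, a ratio of 26.2 (95% counting interval 8.71 to 129), and the protective surface proteins CD55 (1.73-fold) and CD59 (1.56-fold) rose.

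Of 13 mucin and trefoil genes 4 rose, with a median of 0.23. MUC5AC, a gel-forming mucin, went from 488, 388 and 494 CPM to 1167, 1097 and 942 CPM (2.34-fold, log2 1.23 ± 0.13, adjusted p = 0.000333). It was 1 of the 5 called genes with the highest CPM with ADP-heptose. That rank is not corrected for transcript length, so it does not order the genes by abundance. MUC2, the main secreted mucin of the colon, went from 4.18, 2.97 and 5.12 CPM to 9.76, 9.14 and 7.04 CPM (2.11-fold, adjusted p = 0.0126, or 0.0673 without non-stimulated replicate 1), and MUC12 (2.90-fold) and TFF1 (2.12-fold) rose. Of 15 genes of claudins and tight junctions CLDN1 (1.77-fold), CLDN4 (1.65-fold), CGN (1.59-fold) and CLDN7 (1.33-fold) rose, and OCLN, TJP1 and CLDN2 did not pass. Without the third library 8 of the 15 rose and 2 fell.

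Genes that remodel the matrix rose in 10 of 15 cases, with a median of 1.75. PLAU, which encodes urokinase, went from 1.65, 1.35 and 1.41 CPM to 69.1, 71.7 and 74.4 CPM (48.8-fold, log2 5.61 ± 0.12, adjusted p = 1.1e-08), and its receptor PLAUR rose 2.76-fold. The metalloproteinase MMP7, also among the 5 called genes with the highest CPM, went from 300.0, 321 and 317 CPM to 971, 962 and 1210 CPM (3.35-fold, adjusted p = 1.66e-05). MMP10 (22.0-fold), MMP13 (9.71-fold) and MMP1 (8.41-fold) rose from low levels. The laminin chain genes LAMA3 and LAMB3 rose 3.72-fold and 3.13-fold. MMP14, TIMP1 and TIMP2 did not pass. SDC4, a heparan sulfate proteoglycan and another of the 5 called genes with the highest CPM, went from 81.9, 91.3 and 85.7 CPM to 1199, 1191 and 1178 CPM (13.8-fold, log2 3.78 ± 0.09, adjusted p = 2.58e-08).

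The other 2 of these 5 genes were TNFAIP2 and SQSTM1. TNFAIP2, a gene first found as TNF-induced in endothelium, went from 15.5, 15.6 and 16.3 CPM to 1324, 1276 and 1124 CPM (78.5-fold, log2 6.30 ± 0.12, adjusted p = 8.55e-09). SQSTM1, which encodes the autophagy receptor p62, went from 495, 500 and 508 CPM to 1459, 1429 and 1509 CPM (2.93-fold, log2 1.55 ± 0.08, adjusted p = 4.57e-06). All 3 stimulated libraries lay above the non-stimulated ones in both genes, as in every gene called higher.

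The antioxidant, cholesterol and glycolysis lists had medians of 0.24, 0.08 and 0.08 (log2), against 0.01 for all genes. In them 23.1%, 17.6% and 12.5% of the tested genes rose, against 5.65% of all genes. SOD2, the mitochondrial superoxide dismutase and a known NF-κB target, went from 89.9, 95.7 and 92.2 CPM to 364, 356 and 333 CPM (3.79-fold, log2 1.92 ± 0.08, adjusted p = 7.72e-07). Of the other 12 genes of that list, targets of NRF2 for the most part, OSGIN1 (1.84-fold) and TXNRD1 (1.56-fold) rose, and NQO1 and HMOX1 did not pass. In that list 7 of 13 rose without the third library. Of 17 cholesterol genes 3 rose: 1 by at least 2-fold, HMGCS1 1.65-fold and SREBF1 1.23-fold. The call of SREBF1 was lost without any 1 of the libraries other than ADP-heptose replicate 3 (adjusted p between 0.0948 and 0.218). ABCA1, the exporter of cholesterol, fell from 7.29, 7.98 and 6.84 CPM to 2.59, 3.50 and 2.44 CPM (2.58-fold lower, log2 −1.37 ± 0.17, adjusted p = 0.00095). Without the third library 9 of the 17 rose, against 11.4% of all genes. Of 16 genes of glycolysis and hypoxia PFKFB3 (1.57-fold) and VEGFA (1.43-fold) rose, and LDHA, PGK1, CA9 and SLC2A1 did not pass.

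The falls were fewer and smaller, and of the 56 genes called lower 4 (7.14%) are in any of the lists. Some falls, most of them under 2-fold, were in the lists of stem cell and epithelial lineage genes. Of 13 targets and feedback genes of the Wnt pathway 5 fell and none rose, with a median of −0.15. AXIN2, a scaffold that Wnt signaling induces as its own brake, went from 83.9, 83.7 and 85.8 CPM to 34.4, 35.0 and 28.98 CPM, a 2.57-fold fall (log2 −1.36 ± 0.10, adjusted p = 3.12e-05). SP5, a transcription factor induced by Wnt, fell 1.93-fold, EPHB3, a receptor that positions crypt cells, 1.74-fold, LGR5, the marker of crypt stem cells, 1.59-fold (9.16, 9.11 and 8.67 CPM against 5.92, 6.23 and 4.73 CPM), and RNF43, a ligase that removes Wnt receptors, 1.52-fold. The stimulated libraries of these 5 genes lay below all non-stimulated ones. The call of LGR5 was lost without any 1 of the non-stimulated libraries (adjusted p between 0.0607 and 0.0782). ASCL2, NKD1, CCND1, TCF7, DKK1 and EPHB2 did not pass, with log2 changes between −0.15 and 0.10.

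ATOH1, which drives the secretory lineage of goblet and Paneth cells, showed the largest fall that met the level set for naming. It stood at 7.49, 10.04 and 7.29 CPM without and at 2.78, 2.87 and 2.12 CPM with ADP-heptose, a 3.19-fold fall (log2 −1.67 ± 0.18, adjusted p = 0.000475). HES1, the Notch target that represses it, fell 1.33-fold (adjusted p = 0.0152), while HES4 (1.77-fold) and the Notch ligand JAG1 (1.59-fold) rose. That made 2 rises and 2 falls in 14 tested genes, with a median of −0.17. Leaving out the third library gave 4 falls in the list. The calls of HES1 and JAG1 were lost without any 1 of the libraries other than ADP-heptose replicate 3. SPDEF, which acts after ATOH1 in goblet cells, averaged 65.0 and 72.6 CPM and did not pass (adjusted p = 0.542).

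Factors of intestinal epithelial identity divided evenly, with 5 rises and 5 falls among 17 and a median of −0.12. FOXA1 (1.69-fold), NR5A2 (1.60-fold) and FOXA2 (1.40-fold) were among those that fell. FOXA1 went from 101, 95.9 and 95.6 CPM to 59.6, 64.6 and 49.1 CPM (log2 −0.75 ± 0.11, adjusted p = 0.00247). ELF3, an epithelial ETS factor, rose from 93.8, 94.5 and 95.8 CPM to 253, 254 and 265 CPM (2.72-fold, log2 1.44 ± 0.07, adjusted p = 2.89e-06), and SOX9 (1.97-fold), VDR (1.78-fold), FOXA3 (1.76-fold) and PPARG (1.30-fold) rose. HNF4A and KLF5 did not pass. ELF3-AS1 lies beside ELF3, and without strand information its reads cannot be told from those of ELF3.

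In the TGF-β and BMP list 3 of 12 genes rose and 3 fell, with a median of −0.03. BMP2 went from 9.74, 7.51 and 10.8 CPM to 47.1, 47.2 and 39.2 CPM (4.76-fold, log2 2.25 ± 0.15, adjusted p = 1.83e-05), while BMP4, a ligand of the same receptors, went from 361, 361 and 365 CPM to 235, 233 and 223 CPM (1.57-fold lower, log2 −0.65 ± 0.07, adjusted p = 0.000544). SKIL (1.89-fold) and TGFB1 (1.61-fold) rose, and ID2 (1.54-fold) and the pseudoreceptor BAMBI (1.73-fold) fell. Leaving out the third library gave 6 rises and 4 falls.

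**Figure D3:**
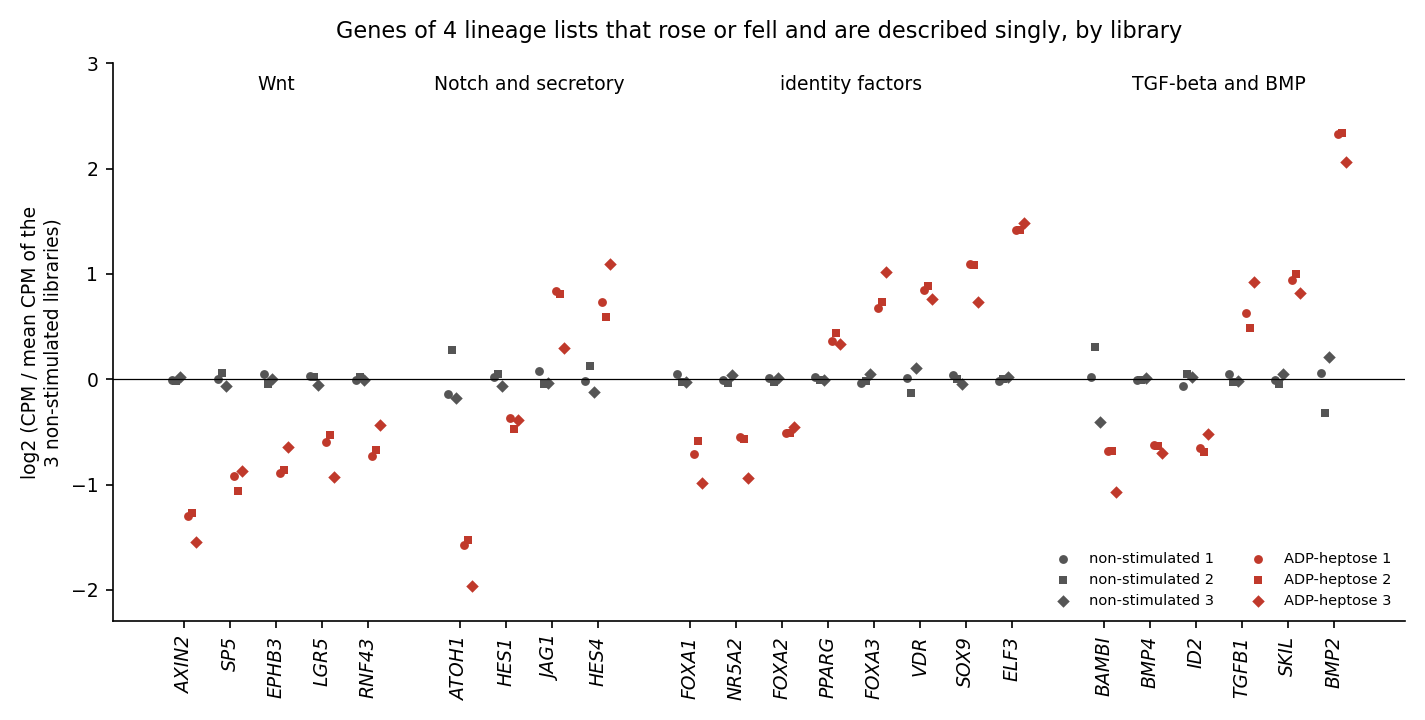
Level of genes of 4 lineage lists that rose or fell and are described singly, in each of the 6 libraries, as log2 of its CPM over the mean CPM of the 3 non-stimulated libraries (y axis), with non-stimulated libraries in grey and ADP-heptose libraries in red. All 5 Wnt genes lie below 0 with ADP-heptose, the identity factors lie on both sides of 0, and the third ADP-heptose library (diamond) often stands off from the others.

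Apart from ATOH1, ABCA1 and AXIN2, the 10 largest falls were genes outside these lists. OTX1, a homeobox factor, went from 9.64, 10.51 and 9.91 CPM to 3.10, 3.48 and 3.14 CPM (3.08-fold lower, log2 −1.63 ± 0.12, adjusted p = 3.63e-05). ARID5B, a DNA-binding coregulator, went from 40.3, 37.6 and 38.9 CPM to 16.6, 16.1 and 11.7 CPM (2.63-fold lower, log2 −1.40 ± 0.13, adjusted p = 0.000218). SLITRK6, a membrane protein known from neurons, went from 35.1, 36.5 and 35.7 CPM to 14.3, 16.3 and 11.5 CPM (2.54-fold lower). KLHDC7A (2.61-fold), GVQW3 (2.52-fold), the zinc finger gene ZNF792 (2.47-fold) and GPRIN3 (2.40-fold) completed the group. Groups that do not overlap were a condition for naming these genes.

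Several rises were of genes not known for a part in inflammation. UNC13A, which primes synaptic vesicles in neurons, had 4 counts over the non-stimulated libraries and 216, 221 and 123 with ADP-heptose, a ratio of 105 (95% counting interval 40.6 to 385). ANKRD33B went from 0.68, 0.50 and 1.11 CPM to 28.2, 27.5 and 14.9 CPM (30.6-fold, log2 4.94 ± 0.34, adjusted p = 2.72e-05). Without stimulation, 45 genes called higher had no library above 3 counts. Of these, SLC6A7, a proline transporter of the brain, reached 62, 105 and 65 counts from 4 (ratio 43.4, 95% counting interval 16.7 to 160). TRIML2 went from 0 to 58, 64 and 66 counts (at least 15.7-fold), the olfactory receptor pseudogene OR2I1P from 0 to 97, 94 and 57 counts (at least 20.5-fold) and LINC00943 from 3 to 83, 77 and 32 counts (ratio 47.8, 95% counting interval 16.1 to 234). ICAM4-AS1 went from 0 to 131, 124 and 130 counts (at least 32.3-fold), but it lies on the opposite strand of ICAM1 and overlaps it. OR2I1P and LINC00943 overlap other genes as well, so their reads may belong to those genes. These intervals and floors cover counting error only.

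A microRNA host was among the 20 largest rises. MIR3142HG (ENSG00000253522, chr5:160438594-160487426, plus strand, GENCODE release 29), a long non-coding RNA, went from 0.08, 0.33 and 0.21 CPM to 8.74, 7.72 and 8.05 CPM (39.7-fold, log2 5.31 ± 0.29, adjusted p = 6.44e-06). Its span holds the hairpins of miR-3142 and of miR-146a, a microRNA known to target IRAK1 and TRAF6. The mature sequences of RefSeq are shown with the seed, bases 2 to 8, in capitals, because miR-146a is the known product of this locus in NF-κB signaling. Mature microRNAs are not seen in poly(A) libraries, so only the host RNA was measured here.
hsa-miR-146a-5p: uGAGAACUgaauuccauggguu
hsa-miR-146a-3p: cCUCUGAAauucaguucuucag
hsa-miR-3142: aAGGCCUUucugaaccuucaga

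Other host genes, taken by their symbol and outside the rule for named genes, were followed in the same way. Of 29 tested genes named as microRNA hosts 5 rose and none fell. MIR23AHG, the host of miR-23a, went from between 17.4 and 19.5 CPM to 83.6, 88.4 and 82.0 CPM (4.62-fold, adjusted p = 6.47e-07), MIR22HG rose 2.55-fold (adjusted p = 0.00053), MIR222HG 2.04-fold (adjusted p = 0.000267) and MIRLET7BHG 1.62-fold (adjusted p = 0.0435). MIR17HG (log2 −0.01) and MIR34AHG (log2 −0.12), the latter a known p53 target, did not pass.

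Genes that rose often lay next to each other. Of the 458 genes called higher with a position, 155 (33.8%) were direct neighbors of another gene called higher, counting tested genes along the chromosome, against 5.21% of all 16684 tested genes with a position that lay beside a gene called higher. Of 55 genes called lower 4 (7.27%) had another gene called lower beside them, against 0.653% of all. In 20 places 3 or more tested genes in a row were called higher, and the longest row, of 5 genes, was RASSF6, CXCL8, CXCL1, CXCL3 and CXCL2 on chromosome 4 (chr4:73571550-74099293). RASSF6, which has a Ras association domain and lies next to the chemokines, rose 2.13-fold by its fitted change of 1.09 (log2, adjusted p = 0.000887), far less than they did. On chromosome 11 the metalloproteinases MMP7, MMP10, MMP1 and MMP13 were neighbors (chr11:102520508-102955734), as were MUC2 and MUC5AC with LINC02688 (chr11:1049880-1201138). On chromosome 6 the rows were LTA, TNF and LTB (chr6:31572054-31582522) and TRIM31, TRIM31-AS1, TRIM10 and TRIM15 (chr6:30102897-30172696). TRIM31, a ubiquitin ligase of the gut epithelium, went from 27.8 to 147 CPM on average (log2 2.41 ± 0.08, adjusted p = 2.96e-07) and TRIM15 from 15.3 to 45.2 CPM. On chromosome 21 IFNAR2, a chain of the type I interferon receptor (log2 3.02 ± 0.29), IL10RB-DT and IL10RB, the shared chain of the IL-10 and IL-22 receptors (log2 2.54 ± 0.34), were called together (chr21:33229901-33310187), and on chromosome 14 the serpins SERPINA4, SERPINA5 and SERPINA3 were. These genes are named for their place and are outside the rule for named genes unless listed above. Neighboring genes can share reads where transcripts overlap, as in the rows with an antisense gene.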

How the data were processed

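The authors made poly(A) libraries, read 150 bases from both ends and, according to the submitters' processing notes, used HISAT2 and featureCounts to align and count; versions, genome build, annotation, strandedness and the treatment of reads with several matches are not given in the sources used here. The deposited values are raw counts per gene, unpooled, in a table of 62972 lines for 62710 identifiers, of which 232 were repeated with identical counts and kept once. GENCODE release 29 held 58274 (92.9%) of them and gave gene types and GRCh38 positions. Mitochondrial genes took 7.31% to 8.31% of the counts per library.

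Counts of the 6 libraries were fitted in edgeR 4.0.16 (R 4.3.3) with TMM scaling, filterByExpr and a robust quasi-likelihood fit tested by the quasi-likelihood F test, p-values were adjusted by Benjamini-Hochberg over all 17323 genes tested, and the square root of the common dispersion was 0.126. Called genes changed 2-fold or more with an adjusted p under 0.05. Standard errors (SE) of log2 changes were derived from the F statistic. For genes with few counts without stimulation, such as VCAM1, LTB and IL17C, they understate the counting error. With 3 libraries against 3 an exact two-sided permutation test of a single gene cannot go below p = 0.1, so none was used. At these depths genes of few counts are limited by counting as well as by the spread between libraries. Where no non-stimulated library exceeded 3 counts, a fold was set against a floor of 3 counts per library, or given as a ratio with its exact 95% interval.

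Genes named were those called with non-overlapping groups and an average log2 CPM of 1 or more that rose most (20 genes) or fell most (10 genes), the 10 genes near 0 with the highest bound, the 5 called genes with the highest CPM after ADP-heptose, and members of 40 gene lists (596 genes, 499 tested); others are said to be outside the rule. Some list members are counted but their own values are not reported here. The gene lists, the comparison and the rules were chosen with earlier results of these data known. Of the genes called higher, 124 (25.8%) are in a list, and of those called lower 4 (7.14%). Scripts were tested on simulated counts. DESeq2 1.42.0, other scalings, filters, a replicate block, thinning and leaving out libraries were alternatives.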

Additional observations from a re-analysis of the deposited data

How the results depend on the processing

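In the main test the genes called higher numbered 481 and the genes called lower 56. The count of rises stayed within 1.5-fold under every alternative that kept the fold threshold, from 398 (library totals) to 603 (no filter on low counts), and leaving out 1 library gave 407 to 553. With no fold threshold, 979 rose and 433 fell, or 1988 and 1253 without ADP-heptose replicate 3. The count of falls was less stable: 90 by DESeq2's test, 121 with library totals (398 higher, where the median change of all genes moved to −0.13), 25 when tested against 1.5-fold, 36 with the replicate block and 31 to 102 when 1 library was left out, the lowest without non-stimulated replicate 1 or 3 (34 without replicate 2) and the highest without ADP-heptose replicate 3; the cause was not tested. Whether replicate numbers pair the libraries was left undecided. Libraries of the same number deviated from their group means with correlations of 0.294, −0.449 and −0.289. With so few libraries, and the third ADP-heptose library apart from its group, these correlations cannot decide it. The replicate block lowered the count of rises to 423. Of 517 single genes followed none changed direction. Of 223 that passed the test, 177 kept their call under every alternative and 46 lost it in at least 1, all of these without 1 library and none without ADP-heptose replicate 3, with adjusted p of 0.05 to 0.218, among them AEN, ATF4, AURKA, B2M, BAMBI, BATF3, CCNA2, CD274, CLDN7, CXCL11, CXCL16, FOS, GADD45A, HERPUD1, HES1, HES4, HLA-C, IFIT5, IL15, IL1B, JAG1, KIF20A, LGR5, MUC2, NECTIN2, NR4A3, OSGIN1, PFKFB3, PMS2, PPARG, PSMB9, PVR, REL, RIPK2, SOCS3, SOCS5, SREBF1, TNFRSF10A, TNFRSF14, TNFRSF1A, TNFSF9, TNIP2, TRAF2, TXNRD1 and VEGFA.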
